A study of Mus musculus with 6 samples.

Results

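Trp53, the gene of the tumor suppressor p53, and 9 genes known as its direct targets were followed in sorted tumor cells of 6 B20-4.1.1–treated mouse mammary tumors. The 10 genes were listed by name as members of the p53 pathway, with earlier results of these data known, out of the 47643 genes in the count tables. All 10 were among the 12088 genes that passed the filter on low counts.

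The p53 protein is a transcription factor that is kept low in unstressed cells, because the ubiquitin ligase encoded by Mdm2 marks it for degradation. DNA damage, oncogene activity and, when severe, oxygen shortage stabilize the protein, which then binds a pair of adjoining 10-base half-sites near its target genes and raises their transcription. Its targets include its own inhibitor Mdm2, inhibitors of cell division such as Cdkn1a (p21), stress and growth sensors such as Gadd45a and Sesn1, and genes that favor cell death such as Aen and Trp53inp1. The p53 protein is controlled mainly after translation, so the level of Trp53 mRNA is a weak guide to its activity.

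All 6 samples belong to one group. They came from mice of the MMTV-PyMT model on the FVB/N background (Tg (MMTV-PyVT)634Mul/J), in which a mammary promoter drives the polyoma middle T oncogene. Every mouse was given the VEGF-A–blocking antibody B20-4.1.1 at 5 mg/kg by intraperitoneal injection 2 times per week for 6 weeks from 7 weeks of age. Tumor cells negative for CD45 and positive for EPCAM were sorted, and their RNA was read with a 3′ method, so each count stands for a read near the polyadenylated end of a transcript. The study divides such treated tumors into high hypoxia (HH) and low hypoxia (LH), but the class of each tumor is not in the labels, no vehicle-treated tumor was analysed here, and the labels name no tumor with altered Trp53. The data therefore show how these genes varied among treated tumors, and hold no comparison with an untreated or p53-deficient state. The tumors are numbered 1 to 6 here, and the mouse identifiers carry the prefix QAF in tumors 1, 4, 5 and 6 and QSD in tumors 2 and 3, a mark whose meaning the labels do not give.

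Counts on genes ranged from 2509482 to 5893246 per tumor, and levels are given as CPM, counts scaled to an equal total in each library. The sorted cells held the markers of their label, with 7 luminal epithelial genes summing to between 3957 and 4874 CPM, whereas 4 endothelial genes summed to at most 4.12 CPM and 5 fibroblast genes to at most 25.9 CPM. Tumor 3 stood apart for 8 immune genes (225 CPM, against 15.95 to 51.3 CPM in the others, with Cd79a at 0 in every tumor) and for 5 erythroid genes (864 CPM, against 5.66 to 69.4 CPM). The 6 basal epithelial genes summed to 499 CPM in tumor 5, against 122 to 285 CPM in the others. The library of tumor 1 had the lowest correlation across genes with the others, with a median Pearson's r of 0.788 against 0.905 to 0.939 over 8873 genes.

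The DNA around the start sites shows where a p53 half-site occurs in these genes. The RefSeq windows of GRCm38, from 250 bases before to 50 bases after a start site, hold 8 of the 10 genes, and none was available for Trp53inp1 and Zmat3. Both strands were searched for exact matches to the p53 half-site, which reads the same on either strand as a pattern. At least 1 match was found in 7 of the 8 genes (87.5%), all but Phlda3, against 9.55% of the 27025 genes with a window (8.36% of 32851 windows, since a gene can have several). The sequences are shown because each holds a match to the half-site pattern, although the matching letters differ from gene to gene. They represent the C57BL/6J reference and not the FVB/N strain of the mice. Each run of 30 bases is written 5′ to 3′ on the strand of the gene, with the half-site in capitals.
Trp53: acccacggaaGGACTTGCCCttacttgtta
Mdm2: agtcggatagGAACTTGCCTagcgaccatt
Cdkn1a, upstream: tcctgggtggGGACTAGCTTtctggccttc
Cdkn1a, downstream: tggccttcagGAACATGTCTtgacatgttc
Ccng1: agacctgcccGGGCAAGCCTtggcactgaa
Sesn1: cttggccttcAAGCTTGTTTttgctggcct
Gadd45a: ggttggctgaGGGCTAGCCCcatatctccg
Aen: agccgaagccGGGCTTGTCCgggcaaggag

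On GRCm38, these runs lie at chr11:69580274-69580303 (Trp53, plus strand), chr10:117710925-117710954 (Mdm2, minus strand), chr17:29090896-29090925 and chr17:29090918-29090947 (Cdkn1a, plus strand) and chr11:40755452-40755481 (Ccng1, minus strand). The other runs lie at chr10:41887256-41887285 (Sesn1, plus strand), chr6:67037428-67037457 (Gadd45a, minus strand) and chr7:78895927-78895956 (Aen, plus strand). Counted from the nearest RefSeq start site, the capitals begin 75 bases upstream in Trp53, 186 in Mdm2, 73 and 51 in Cdkn1a, 185 in Ccng1, 173 in Sesn1 and 40 in Gadd45a. Cdkn1a and Sesn1 each have another RefSeq start, at chr17:29093769 and chr10:41810574, whose window held no half-site. The Gadd45a run begins at the first base of the longer GENCODE M21 gene model and lies within it. The Aen half-site begins 10 bases downstream of one RefSeq start and 121 bases upstream of another. A full site of 20 bases (a pair of adjoining half-sites, with at most 1 base between them) with at most 1 mismatch was found in 0.177% of all windows, and among these genes in Cdkn1a and Ccng1. In Cdkn1a it is the downstream half-site with the 10 bases that follow it, and in Ccng1 the capitals with the 10 bases that precede them. The best full site of Trp53, Sesn1, Gadd45a and Aen had 3 mismatches, which 11.7% of all windows match or better, and that of Mdm2 and Phlda3 had 5, which 89.9% of all windows match or better. Among 27 other p53 targets with a window, 7 held a half-site (25.9%), against 0 of 19 regulators of p53 and 1 of 11 cell cycle genes. These matches describe letters in a window and do not show binding.

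Trp53 itself had the widest range of the 10 genes. Its level was lowest in tumor 1 (1.87 CPM) and highest in tumor 5 (19.2 CPM), a 10.3-fold range, while tumor 2 had 9.56 CPM, tumor 3 had 9.94 CPM, tumor 4 had 7.66 CPM and tumor 6 had 8.98 CPM. Tumor 1 lay 4.10-fold below the next tumor and tumor 5 lay 1.93-fold above the next, while the 4 tumors between them lay within their counting errors. The counts were low, from 11 in tumor 1 (exact 95% Poisson interval 0.932 to 3.34 CPM) to 96 in tumor 5 (15.5 to 23.4 CPM), and these intervals cover counting error only. They did not overlap the intervals of the 4 tumors between, but neither end passed Dixon's test for a value apart. Tumor 5 also had the highest sum of basal epithelial markers, and the part of this in its Trp53 level was not tested. The sorted cells are bulk samples, so fewer cells that express a gene and less RNA per cell cannot be told apart.

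Among the targets, Mdm2, the ligase that closes the feedback loop on p53, varied least in relation to its level. Tumors 3 and 4 both had 146 CPM, tumor 1 had 134 CPM, tumor 2 had 118 CPM, tumor 5 had 114 CPM and tumor 6 had 86.1 CPM. The range was 1.70-fold and the coefficient of variation (CV, the SD over the mean) 18.6%, with tumor 6 the lowest and 295 to 792 counts behind the values. The tumor with the highest Trp53 was thus not the tumor with the highest Mdm2.

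Cdkn1a encodes p21, an inhibitor of cyclin-dependent kinases that halts the cell cycle. Its level was 225 CPM in tumor 4, then 100 CPM (tumor 1), 87.9 CPM (tumor 5), 57.4 CPM (tumor 6), 55.3 CPM (tumor 3) and 41.0 CPM (tumor 2). Tumor 4 stood 2.25-fold above the next tumor, and its gap to that tumor was 0.679 of the whole range, past Dixon's 95% critical value for 6 samples. It was the single gene of the 10 with such a tumor, against 16.3% of all tested genes; on the log2(CPM + 1) scale the gap was 0.478 and no gene of the 10 passed. With 103 to 1057 counts per tumor, counting error alone would give a CV of 4.70%, whereas the CV was 71.6%. On the log2(TMM-scaled CPM + 1) scale, Cdkn1a in tumor 4 lay 1.62 above its median. The hypoxia genes Vegfa, Slc2a1 and Car9 lay there at a median of 0.63. In tumors 1, 2, 3, 5 and 6, Cdkn1a lay at 0.38, -0.80, -0.55, 0.18 and -0.18. The hypoxia genes lay in those tumors at medians of -0.59, -0.43, -0.03, 1.31 and 0.03. Exons of Cdkn1a overlap AC167363.2 on the opposite strand, a gene not analysed here, and the use of strand in the counting is not given in the sources used here.

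Ccng1 encodes cyclin G1, a strongly p53-responsive cyclin that acts in the feedback on p53. It ranged from 57.2 CPM in tumor 6 to 110 CPM in tumor 3 with a median of 95.3 CPM, a 1.93-fold range. As in Mdm2, tumor 6 was lowest, and the intervals of tumors 1, 3 and 5 overlapped near the top.

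The stress sensors were lower. Sesn1, which encodes sestrin 1, an antioxidant protein that restrains growth signaling through mTORC1, measured 3.51 to 9.18 CPM (median 4.97 CPM) with 10 to 46 counts. Gadd45a, which encodes a protein of growth arrest and DNA repair that other stress pathways also induce, was lowest in tumor 2 (14.3 CPM) and lay between 21.8 and 28.6 CPM elsewhere. Gadd45a shares exon bases on the opposite strand with E230016M11Rik, which had 11 to 19 counts per tumor. With the use of strand unknown, reads of the 2 genes in the shared bases cannot be told apart.

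Phlda3, which encodes a PH-domain protein that competes with AKT for membrane lipids, ranged from 5.82 CPM in tumor 3 to 12.6 CPM in tumor 5 (median 8.17 CPM). Trp53inp1, which encodes a stress protein that promotes p53 activity and autophagy, ranged from 39.4 CPM in tumor 1 to 81.3 CPM in tumor 4 (median 54.9 CPM). Tumor 4 was thus the highest for both Cdkn1a and Trp53inp1, by 2.25-fold and 1.24-fold over the next tumor. Zmat3, which encodes an RNA-binding zinc finger protein, ranged from 25.2 CPM in tumor 6 to 63.8 CPM in tumor 1 (median 38.5 CPM). Tumor 1, the lowest for Trp53, was the highest for Zmat3 by 1.46-fold. Aen, which encodes an exonuclease that takes part in apoptosis, was the rarest, from 1.17 CPM in tumor 6 (6 counts), with a median of 3.72 CPM and the highest value in tumor 1 (33 counts).

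**Figure D1:**
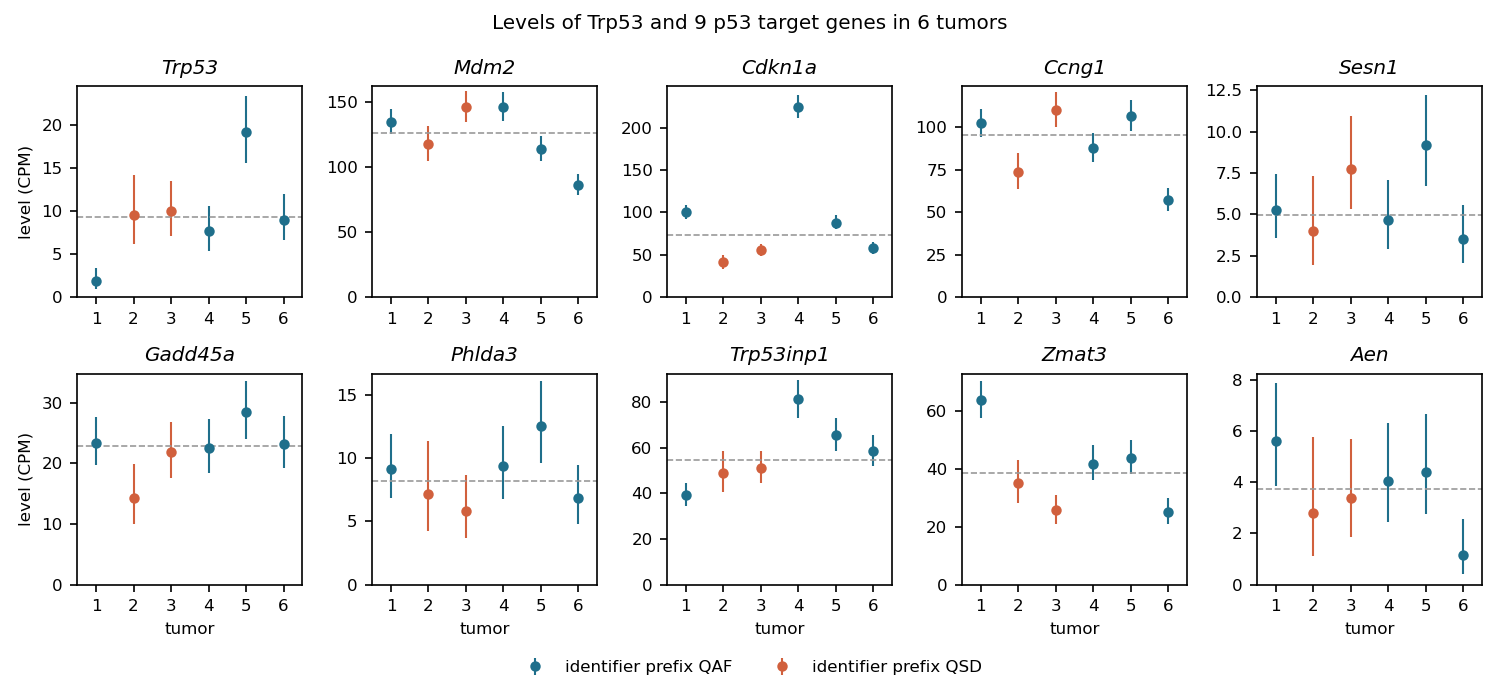
Each panel plots the level of 1 gene (CPM, linear axis from 0) in tumors 1 to 6, with points for tumors, bars for exact 95% Poisson intervals of the count, a dashed line for the median of the 6 and color for the identifier prefix. Trp53 is at 1.87 CPM in tumor 1 and 19.2 CPM in tumor 5, and Cdkn1a reaches 225 CPM in tumor 4, while Mdm2 stays between 86.1 and 146 CPM.

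To order the genes by level, CPM was divided by union exon length and rescaled (TPM, the per-length scale), although with 3′ reads a count depends little on length. The median was 70.4 TPM for Ccng1, 64.3 TPM for Mdm2, 50.8 TPM for Cdkn1a, 33.0 TPM for Gadd45a and 21.1 TPM for Trp53inp1. It was 13.6 TPM for Phlda3, 8.83 TPM for Zmat3, 5.84 TPM for Trp53, 3.24 TPM for Sesn1 and 1.66 TPM for Aen. The ranges of every pair of neighbors in this order overlapped. Ccng1 exceeded Mdm2 in 3 of 6 tumors, Mdm2 exceeded Cdkn1a in 3, and Zmat3 exceeded Trp53 in 3, so on the TPM scale these pairs did not differ beyond their spread. Trp53 exceeded Sesn1 in 5 tumors, and each of the other 5 pairs of neighbors kept its order in all 6. The order depends on the division by length, since on the CPM scale Mdm2 exceeded Ccng1, Trp53inp1 exceeded Gadd45a and Zmat3 exceeded Phlda3 in all 6 tumors. On that scale Zmat3 also exceeded Trp53 in all 6 tumors, and Cdkn1a exceeded Mdm2 in only 1.

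The spread between tumors beyond counting noise was described by edgeR's biological coefficient of variation (BCV), which was set beside its trend over all genes of like abundance. Of the 10 genes, 2 lay above the trend, Trp53 and Cdkn1a, against 33.1% of all tested genes. The BCV of Trp53 was 0.546, with 89.0% of tested genes lower in relation to the trend, and that of Cdkn1a was 0.488, with 93.7% lower. The other 8 lay below the trend, from 0.272 for Mdm2 (14.4% of genes lower) to 0.437 for Aen (46.7% lower), with Zmat3 at 0.338 nearest to it (63.0% lower).

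**Figure D2:**
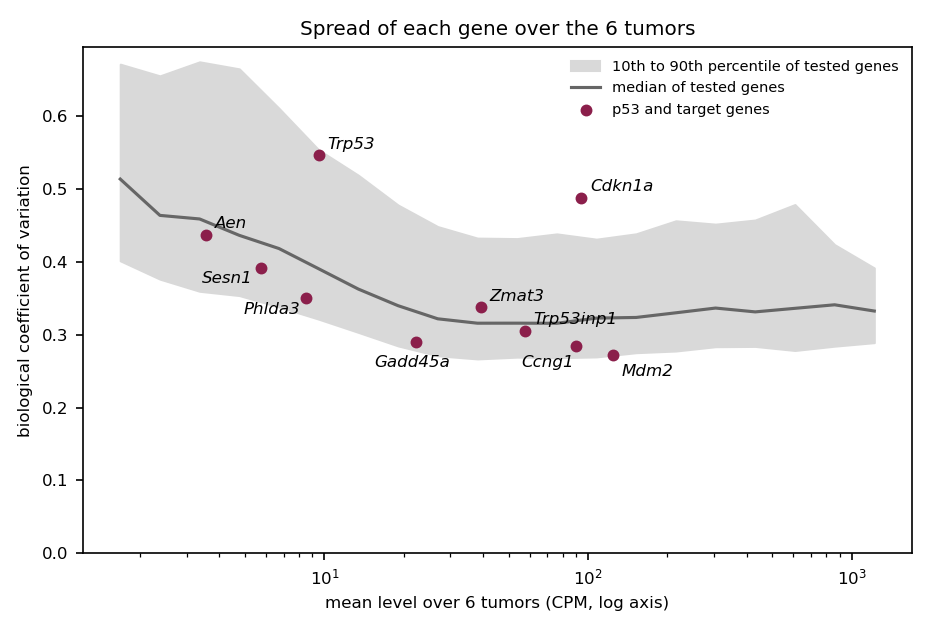
The biological coefficient of variation of each gene over the 6 tumors (linear axis from 0) is plotted against its mean level (CPM, log axis), with the median and the 10th to 90th percentile of all tested genes in bins of mean level. Cdkn1a (0.488) lies above the band and Trp53 (0.546) near its upper edge, and the other 8 genes lie between 0.272 and 0.437.

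The tumors in which the genes were lowest or highest differed from gene to gene. The lowest value was in tumor 6 for 5 genes (Mdm2, Ccng1, Sesn1, Zmat3 and Aen), against 20% of all tested genes. It was in tumor 1 for Trp53 and Trp53inp1 (28.8% of all genes), in tumor 2 for Cdkn1a and Gadd45a (24.6%), in tumor 3 for Phlda3 (6.32%) and in tumors 4 and 5 for none (8.47% and 11.8%). The highest value was in tumor 5 for 4 genes (Trp53, Sesn1, Gadd45a and Phlda3; 18.5% of all genes) and in tumor 4 for 3 (Mdm2, Cdkn1a and Trp53inp1; 11.2%). It was in tumor 1 for Zmat3 and Aen (34.2%), in tumor 3 for Ccng1 (16.1%), and in tumors 2 and 6 for none (15.7% and 4.43%). With TMM-scaled CPM, which corrects each library for its composition, 4 genes were lowest in tumor 6 and 5 highest in tumor 5. Without tumor 1, 5 were lowest in tumor 6 and 6 highest in tumor 5. Without tumor 3, the tumor with more immune and erythroid RNA, these numbers were 6 and 5. Shares over all tested genes are not given for the TMM scale or with a tumor left out. Leaving a tumor out can only keep or raise the share of each other tumor, so a higher count there does not show a stronger pattern. Tumors 2 and 3, which share the prefix QSD, lay together below all others for 2 genes, Cdkn1a and Gadd45a, against 14.1% of all genes on either side.

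Set beside their own medians on the log2 scale, the 9 targets as a group were lowest in tumor 6 (median difference -0.25), tumor 2 (-0.22) and tumor 3 (-0.19), and highest in tumor 5 (0.18), tumor 4 (0.16) and tumor 1 (0.07). All tested genes had medians between -0.03 and 0.04 in these tumors. A wider list of 35 other p53 targets, of which 31 passed the filter, stayed between -0.13 and 0.05, so the differences of the 9 targets were not seen in the median of the wider list. Its subsets were not all flat. The median was -0.74 in tumor 3 for arrest genes, -0.50 in tumor 2 for apoptosis genes and 0.41 in tumor 1 for metabolism and stress genes. Subsets of DNA repair and feedback genes stayed between -0.28 and 0.15. The members that differed were also not one block, since in tumor 1 Zmat3 (0.66) and Aen (0.49) were above their medians while Trp53 (-1.89) and Trp53inp1 (-0.55) were below theirs.

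**Figure D3:**
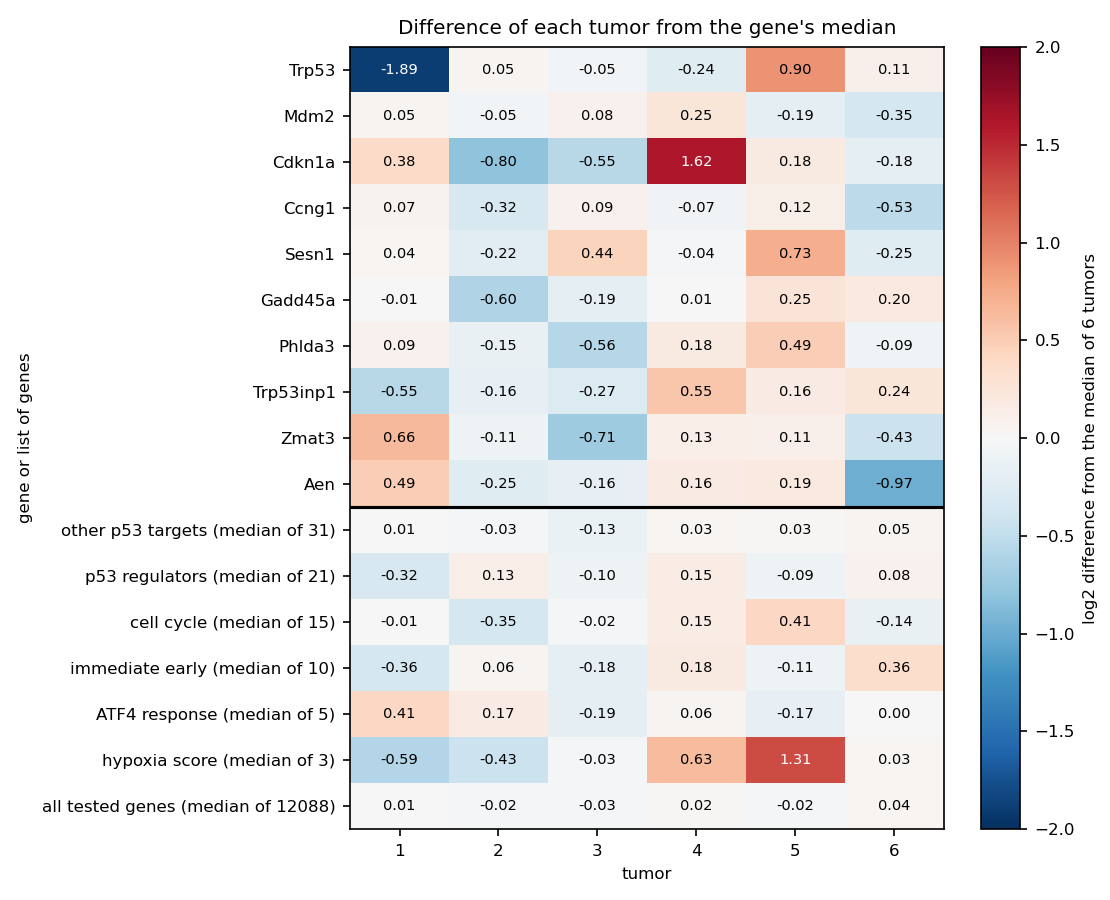
The color and number in each cell give the difference of 1 tumor (columns) from the median of the 6 on the log2(TMM-scaled CPM + 1) scale, for each of the 10 genes (upper rows) and as the median of each list (lower rows). Trp53 in tumor 1 (-1.89) and Cdkn1a in tumor 4 (1.62) are the extreme cells, and the list of other p53 targets stays between -0.13 and 0.05.

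Among the regulators of p53, Cdkn2a, which encodes the Mdm2 inhibitor p19ARF and the kinase inhibitor p16, was highest in the tumor with the highest Trp53. It had 16.8 CPM (84 counts) in tumor 5, against 2.04 to 4.30 CPM elsewhere, and this 3′ method does not separate its products. Ppp1r13l, which encodes the p53 inhibitor iASPP, had 46.8 CPM in tumor 1, against 25.4 to 30.6 CPM elsewhere. Tumor 1 also had the lowest Trp53, and it was the highest tumor for 34.2% of all tested genes. A link between the 2 levels was not tested. The ribosomal protein genes Rpl11 (539 to 1340 CPM) and Rpl5 (123 to 365 CPM), whose products bind Mdm2, and the coactivator genes Crebbp (167 to 456 CPM) and Ep300 (120 to 189 CPM) had the highest levels of the list. Of the 21 regulators, all tested, the median difference in tumor 1 was -0.32, where Trp53 was also lowest; the part of the composition of that library in these values was not tested.

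Other known targets of p53 followed several patterns. Btg2 (antiproliferative; 340 to 728 CPM), Rps27l (131 to 330 CPM), Ddit4 (an mTORC1 inhibitor also induced by hypoxia; 78.5 to 254 CPM) and Perp (a membrane protein of epithelial adhesion and apoptosis; 80.9 to 219 CPM) had the highest levels. Tumor 5 stood apart for the death receptor gene Eda2r (5.19 CPM, against 0.851 to 1.99 CPM) and the stress cytokine gene Gdf15 (12.0 CPM, against 2.39 to 5.32 CPM). Fas was highest in tumor 6 (7.03 CPM) and the DNA repair gene Ddb2 in tumor 3 (35.6 CPM). Tumor 1 was lowest for the DNA repair gene Ercc5 (12.9 CPM, against 34.7 to 43.3 CPM) and the ubiquitin ligase gene Fbxw7 (31.1 CPM, against 94.3 to 125 CPM). Trp73 was at or below 1 count in every tumor.

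The study asks what sets more hypoxic treated tumors apart, so each gene was set against a score of hypoxia, the mean of log2(TMM-scaled CPM + 1) of Vegfa, Slc2a1 and Car9, with edgeR's quasi-likelihood test over all 12088 genes. The score rose from 5.22 (tumor 1) and 5.29 (tumor 2) over 5.62 (tumor 3), 5.69 (tumor 6) and 6.33 (tumor 4) to 6.75 (tumor 5). Since the score is on a log2 scale, a rise of 1 in it is called a doubling of the score. None of the 10 genes passed an adjusted p of 0.05 in edgeR (0% of all tested genes did), and none had an unadjusted p under 0.05, against 10.3% of all tested genes. The slope was above 0 in 8 of the 10 genes, against 47.1% of all tested genes, with a median of 0.35 per doubling of the score against -0.04. None of these slopes differs from 0 by its own test, and the count describes these 6 tumors. In counts simulated with these library sizes and the trend of spread, edgeR called 4.5% of genes given a slope of 1. It called 80.0% of those given a slope of 2. Slopes of the size seen here would mostly go uncalled, so the lack of calls does not show that the genes are unchanged.

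Trp53 had the steepest slope, 0.97 on the log2 scale per doubling of the score (SE 0.50, 95% interval -0.14 to 2.08, adjusted p = 0.504 in edgeR). Cdkn1a followed with 0.81 (SE 0.46, interval -0.22 to 1.85, adjusted p = 0.531) and Trp53inp1 with 0.48 (SE 0.26, interval -0.10 to 1.07, adjusted p = 0.518). The slope of Cdkn1a was 0.20 (SE 0.36) without tumor 4, 1.27 without tumor 1 and 1.43 without tumor 5, and it was 1.33 with a score from TPM and 1.28 with one from CPM. In the last 4 of these settings its unadjusted p in edgeR was between 0.026 and 0.047 and its adjusted p between 0.467 and 0.954. The slope of Trp53 was 0.55 (SE 0.33) without tumor 1 and 0.64 (SE 0.97) without tumor 5. With the prefix as a term, the slope of Cdkn1a was 0.46 (adjusted p = 0.609 in edgeR) and that of Trp53 1.52 (unadjusted p = 0.020, adjusted p = 0.288 in edgeR). The slope of Trp53 was 1.38 without tumor 2 (unadjusted p = 0.029, adjusted p = 0.398 in edgeR). With limma-voom it was 1.28 (unadjusted p = 0.028, adjusted p = 0.435). In the other settings that tested Trp53 its unadjusted p was above 0.05. Sesn1 (0.45), Phlda3 (0.40) and Gadd45a (0.29) had positive slopes with intervals that spanned 0. Without tumor 5, the tumor with the highest score, the slope was 0.027 for Sesn1, 0.13 for Phlda3 and 0.85 for Trp53inp1. Ccng1 (0.11), Aen (0.07), Mdm2 (-0.02) and Zmat3 (-0.06) had slopes near 0, and their sign changed under other settings. For Mdm2 the 95% interval ran from -0.60 to 0.55, so a change of up to about that size per doubling is within the error of these 6 tumors.

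**Figure D4:**
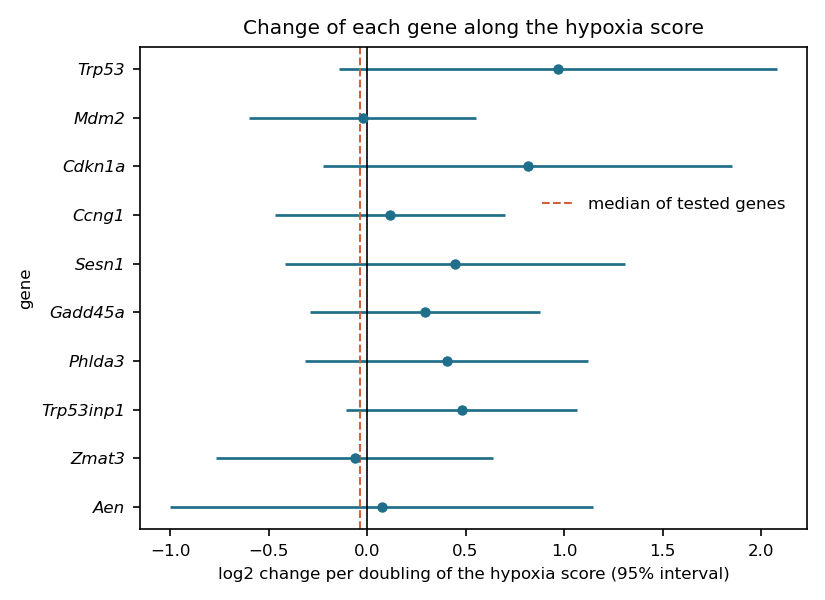
Points give the log2 change of each gene per doubling of the hypoxia score (per unit of the log2 score) in edgeR and bars the 95% interval. A solid line is at 0 and a dashed line at the median of all tested genes (-0.04). The intervals of all 10 genes span 0, and Trp53 (0.97) and Cdkn1a (0.81) lie farthest to the right.

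The lists around p53 gave no adjusted call along the score either. Of all tested genes, 47.1% had a slope above 0 and 10.3% an unadjusted p under 0.05 in edgeR. Of the 31 other p53 targets tested, 15 had a slope above 0 (median -0.02) and 3 an unadjusted p under 0.05, Tnfrsf10b (0.71), Apaf1 (0.98) and Gdf15 (1.02). Of the 21 regulators, 10 had a slope above 0 (median -0.06) and 1 an unadjusted p under 0.05, Cdkn2a (slope 1.62, SE 0.45, adjusted p = 0.449 in edgeR). The 15 cell cycle genes, which p21 represses through the DREAM complex when p53 is active, had slopes above 0 in 13 (median 0.56) and an unadjusted p under 0.05 in 5, Mki67, Top2a, Bub1, Aurkb and Cdc20. Tumor 5 was the highest for 9 of these 15 genes (18.5% of all tested genes), tumor 1 for 3 (34.2%), tumor 4 for 2 (11.2%) and tumor 3 for 1 (16.1%). Top2a (82.2 to 240.0 CPM), Birc5 (82.5 to 174 CPM), Plk1 (29.5 to 107 CPM) and Mki67 (34.7 to 65.5 CPM) had the highest levels of the list. The 10 immediate early and heat shock genes, which tissue dissociation can induce along with Gadd45a, had a median slope of 0.02, with 5 above 0, and the 5 tested genes of the ATF4 response had one of -0.36, with 1 above 0. The most abundant of the former were Egr1 (701 to 956 CPM), Jun (244 to 899 CPM), Junb (478 to 801 CPM) and Fos (336 to 686 CPM), and of the latter Atf4 (567 to 1362 CPM), Ddit3 (54.1 to 120 CPM), Trib3 (12.1 to 32.6 CPM) and Asns (16.3 to 27.8 CPM).

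Whether Trp53 mRNA and its targets moved together was examined over the 6 tumors with 16 relations, tested by exact two-sided permutation over all 720 orders of the tumors (smallest possible p 0.00139 for Pearson's r). None had an adjusted p under 0.05. Trp53 and Mdm2 had r = -0.43 (exact p = 0.421, adjusted 0.836) and rho = -0.77 (exact p = 0.103, adjusted 0.839). Trp53 and Cdkn1a had r = -0.22 (exact p = 0.668, adjusted 0.857) and rho = -0.43 (exact p = 0.419, adjusted 0.839). Among the 9 relations of Trp53, Pearson's r was highest for Trp53inp1, with r = 0.59 (exact p = 0.194, adjusted 0.836) and rho = 0.37 (exact p = 0.497, adjusted 0.884). Without tumors 1 and 5, the 2 farthest from the median of Trp53, r was -0.92 for Mdm2, -0.84 for Cdkn1a and -0.52 for Trp53inp1, but Trp53 in the 4 tumors that remain did not differ beyond counting error, so these values say nothing on the relations. The mean of the other p53 targets had r = 0.68 with Cdkn1a (exact p = 0.138, adjusted 0.836; rho = 0.60, exact p = 0.242, adjusted 0.839), which fell to 0.08 without tumors 2 and 3. Only the pooled values are given, since the prefix QSD holds 2 tumors and QAF 4, too few for a relation within either.

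Among themselves, the 45 pairs of the 10 genes had a median Pearson's r of 0.26, with 30 above 0, against 0.0023 and 50.1% of all pairs of tested genes. Without tumor 1 the median was 0.32 with 37 pairs above 0, against 0.02 for all pairs. These values are a description over 6 libraries that share depth and composition with every gene. Mdm2 had r = 0.65 with Aen, 0.54 with Ccng1 and 0.51 with Cdkn1a, and Cdkn1a had r = 0.55 with Trp53inp1, or 0.90 without tumor 1. Among the 8873 genes whose mean reached 10 CPM, the profile most like that of Trp53 over the 6 tumors was that of Cc2d2a (r = 0.998), followed by Mipol1 and Wdr35. Wdr59 (r = 0.991), Map2k7 and Lig3 were most like Mdm2, and Siah2 (r = 0.977), Mpzl2 and Clasp2 most like Cdkn1a. Of the 10 genes, the 6 with such a mean (Mdm2, Cdkn1a, Ccng1, Gadd45a, Trp53inp1 and Zmat3) could be found by this search. None was among the genes named, but only the top few of 8873 are named, so this says nothing on the members. With 8873 genes compared over 6 tumors, some values of r this high can arise by chance, and these were not tested.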

How the data were processed

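RNA of sorted tumor cells from 6 B20-4.1.1–treated tumors was measured. The authors deposited raw counts per gene, made from QuantSeq FWD reads trimmed with bbduk, aligned to GRCm38 with STAR 2.5 and counted with HTSeq. Collapsing of molecular identifiers, use of strand and annotation release are not given in the sources used here. Lines that name no gene (16.1 to 41.4% of reads) were left out. All samples formed 1 group, and the p-values of slopes and relations rest on the variation between these 6 tumors. The members and lists were chosen with earlier results of these data known. All 10 members were named; of each list, the 4 genes with the highest mean CPM and genes with a tumor past Dixon's value were named, plus genes counted in groups of 5 or fewer.

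CPM used all genes, and TPM used GENCODE M21 union exon lengths. Genes were filtered with filterByExpr (minimum count 10, total 15, in 3 tumors). Slopes along the score came from edgeR 4.0.16 (TMM, quasi-likelihood, Benjamini-Hochberg over all genes), tested on simulated data. Alternatives were DESeq2 1.42.0, limma-voom 3.58.1, other scalings, filters and scores, the prefix as a term, and each tumor left out. No 300-base 3′ end of a member held a 50-base window shared with another gene. R 4.3.3 and Python 3.11.15 were used.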

Additional observations from a re-analysis of the deposited data

Results flagged for a closer look

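A tumor stood apart by Dixon's 95% critical value in 14 of the 99 genes looked at and in 2 of 7 marker lists. Chance gives about 1 in 20 (4.95 of 99 genes), but 16.3% of all tested genes held such a tumor, so these genes are near the share over all genes. The value given is the gap to the nearest tumor over the whole range. Cdkn1a was apart in tumor 4 (0.679), where its level was 225 CPM against 41.0 to 100 CPM. Tumor 5 was apart on the high side for Eda2r (0.737), Gdf15 (0.695), Cdkn2a (0.847), Bub1 (0.632) and Aurkb (0.747), genes of death signaling, stress, p53 control and mitosis, and it was also the tumor with the highest Trp53 and the highest hypoxia score. Tumor 1 was apart for Ercc5 (0.715) and Fbxw7 (0.675) on the low side and for Ppp1r13l (0.758), Mcm5 (0.709), Dnajb1 (0.705) and Atf4 (0.6252) on the high side. Fas was apart in tumor 6 (0.657) and Ddb2 in tumor 3 (0.660). The summed immune markers (0.831) and erythroid markers (0.926) were apart in tumor 3. The part of library depth or composition in these values was not tested.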

How the results depend on the processing

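Precision is limited by the number of tumors (6) and, for genes of low level, by depth: counting error alone gives a CV of 15.4% for Trp53 (CV 58.5%), 15.9% for Phlda3 (28.6%), 19.4% for Sesn1 (39.3%) and 24.4% for Aen (42.4%). Members called along the score numbered 0 under all 14 alternatives, although slopes of the size seen here were mostly missed in simulated counts. Relations with an adjusted p under 0.05 numbered 0 under all 9. With a tumor left out there are fewer orders, so the smallest possible p is higher and an adjusted p under 0.05 was hardly reachable. Of 136 slopes of members under alternatives, 122 kept their direction, as did 130 of 144 correlations, and 89 of 90 median levels moved by less than 1 SD. No paired analysis was possible because all samples belong to 1 group. The cause of the changes below was not tested.

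Genes called along the score, 0 in edgeR as planned (1248 at an unadjusted p under 0.05), numbered 48 with DESeq2, 0 with limma-voom, 3 with RLE normalization, 27 without a filter, 3 among genes averaging 10 CPM or more, and 0 to 27 with a tumor left out (27 without tumor 1, 5 without tumor 4). The lowest adjusted p in edgeR as planned was 0.0501, just above the threshold. In the counts simulated with a slope of 2, 9.29% of the calls of DESeq2 and 3.61% of those of edgeR were false. Members with a tumor past Dixon's value numbered 0 on the log2(CPM + 1) scale. The slope of Mdm2 turned positive among genes averaging 10 CPM or more (0.0056), the score from TPM (0.047) or CPM (0.030) and the prefix as a term (0.028), and ran from -0.13 to 0.18 with a tumor left out. The slope of Zmat3 turned positive with limma-voom (0.0023) and the score from TPM (0.15) or CPM (0.13), and ran from -0.33 to 0.36. The slope of Aen turned to -0.018 with the prefix as a term and ran from -0.19 to 0.62, and that of Ccng1 ran from -0.023 to 0.26. On CPM, r of the other p53 targets was 0.27 with Mdm2 and 0.60 with Ccng1. With a tumor left out, these ran from -0.77 to 0.062 and from -0.47 to 0.40. Likewise r of Trp53 ran from -0.56 to 0.32 with Ccng1, -0.15 to 0.66 with Sesn1, -0.22 to 0.46 with Gadd45a, -0.42 to 0.62 with Phlda3, -0.065 to 0.84 with Trp53inp1, -0.83 to 0.32 with Zmat3 and -0.74 to 0.22 with Aen. That of the cell cycle list with Trp53 ran from -0.17 to 0.61 and of the immediate early list with Cdkn1a from -0.10 to 0.71.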
